A study of Homo sapiens with 18 samples.

Results

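The 8 genes followed here belong to pericellular plasmin generation and the start of coagulation, and they were measured in 786-O cells, an established human clear cell renal carcinoma line that lacks the tumor suppressor VHL. They were taken by name, 8 of 27063 genes to which counts could be summed: PLAU, PLAT, PLAUR, SERPINE2, SERPINF2, SERPINB2, F3 and ANXA2. The names were chosen with their responses to the hairpins below already known, so that each hairpin's difference from its control is a description here and is given without a p-value. There are 18 RNA-seq libraries, 3 for each of 6 groups. In the first experiment the cells carried hairpin sh50 or hairpin sh52 against USP13, a deubiquitinase, or a control hairpin, shCtrl. In the second they carried hairpin sh43 or hairpin sh45 against ZHX2, a zinc finger and homeobox transcription factor, or shCtrl again, in libraries of its own. All 6 groups are the same line in serum-containing medium, and none of the 18 libraries is labelled as cells without a hairpin. The labels describe USP13 hairpins in a doxycycline-inducible vector but give neither doxycycline dose nor time for these libraries, and they do not say whether the 3 libraries of a group are separate cultures. Each SD below is the spread between libraries of a group, and each SE rests on such spread through a fitted model. That spread may be technical.

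The serine proteases urokinase (PLAU) and tissue plasminogen activator (PLAT) cut plasminogen into plasmin, the protease that dissolves fibrin and degrades extracellular matrix. Urokinase works bound to its receptor PLAUR, and plasminogen and tissue plasminogen activator bind to annexin A2 (ANXA2), which pairs with S100A10 at the cell surface. Serpins restrain the system: SERPINE2 and SERPINB2 inhibit the activators, and SERPINF2 inhibits plasmin itself. Tissue factor (F3) is the membrane receptor for factor VII that starts coagulation, and tumor cells often carry it.

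The targeted genes followed the hairpins' titles. Levels are in CPM, a library's counts scaled to a common total. USP13 averaged 33.4 ± 2.5 CPM (SD, n = 3) in its controls, 17.7 ± 2.0 under sh50 and 16.5 ± 1.73 under sh52. ZHX2 averaged 349 ± 2.80 CPM in its controls, 41.7 ± 2.78 under sh43 and 86.7 ± 5.84 under sh45. The treatment text of the labels lists hairpins 43 and 45 under USP13, whereas USP13 itself averaged 42.1 CPM in the ZHX2 controls, 36.6 with sh43 and 47.9 with sh45. Library totals ran from 11192561 to 16511290 counts. Of 8 renal markers, 7 were found, with a summed level of 3968 to 5407 CPM over the libraries. Most of that sum was VIM, so the sum mainly follows that gene. PAX8 was among the 7 at 343 to 537 CPM, and CA9, a marker of clear cell carcinoma, stayed under 1 CPM throughout. The library of sh52 replicate 1 held a count for 15481 genes, the fewest of the 18, and the next held 15857. Without it the same number of the 8 genes was called under sh52 (2), and the uncalled changes of F3 and SERPINE2 under sh52 moved to 0.09 and 0.05 on the log2 scale.

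Promoter sequence is shown for F3, PLAUR, SERPINB2 and PLAU, which stood higher under a ZHX2 hairpin, and for ANXA2, which moved little. RefSeq promoter windows (GRCh38.p14) were matched for 6 of the 8 genes, in 8 windows. Each line gives the 250 bases before the transcription start, 5′ to 3′ on the gene's strand, with capitals for every match to the AP-1 motif TGANTCA or the NF-kB motif GGANTTTCC on either strand.
F3, chr1:94541760-94542009, minus strand: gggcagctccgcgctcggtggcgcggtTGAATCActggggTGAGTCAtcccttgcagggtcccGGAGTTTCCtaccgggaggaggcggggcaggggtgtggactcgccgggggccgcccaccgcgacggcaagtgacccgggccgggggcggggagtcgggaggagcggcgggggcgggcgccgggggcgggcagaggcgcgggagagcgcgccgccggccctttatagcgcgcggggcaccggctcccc
PLAUR, chr19:43670170-43670419, minus strand: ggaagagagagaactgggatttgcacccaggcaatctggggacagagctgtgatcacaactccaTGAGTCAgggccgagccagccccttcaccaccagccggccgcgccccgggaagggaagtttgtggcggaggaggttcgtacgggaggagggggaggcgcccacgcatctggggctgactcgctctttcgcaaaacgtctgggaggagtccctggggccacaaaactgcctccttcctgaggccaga
SERPINB2, chr18:63887455-63887704, plus strand: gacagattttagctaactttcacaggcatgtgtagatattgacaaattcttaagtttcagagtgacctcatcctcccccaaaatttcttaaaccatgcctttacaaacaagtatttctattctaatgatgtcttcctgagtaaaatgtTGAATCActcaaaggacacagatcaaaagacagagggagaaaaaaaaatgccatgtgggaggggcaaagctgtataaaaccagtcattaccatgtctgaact
ANXA2, chr15:60397987-60398236, minus strand: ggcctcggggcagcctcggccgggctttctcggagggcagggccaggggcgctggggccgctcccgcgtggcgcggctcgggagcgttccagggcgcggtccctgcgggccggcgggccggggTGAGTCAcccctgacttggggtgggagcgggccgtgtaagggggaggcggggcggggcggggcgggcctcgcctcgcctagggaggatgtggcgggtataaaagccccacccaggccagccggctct
PLAU, chr10:73910882-73911131, plus strand: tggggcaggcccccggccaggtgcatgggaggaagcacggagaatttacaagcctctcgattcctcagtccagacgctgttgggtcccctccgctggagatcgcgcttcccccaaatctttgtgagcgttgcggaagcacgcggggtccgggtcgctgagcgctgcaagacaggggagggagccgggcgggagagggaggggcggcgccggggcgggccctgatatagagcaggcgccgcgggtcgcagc
The F3 window holds 2 AP-1 matches, 223 to 217 and 210 to 204 bases before the start, and an NF-kB match 187 to 179 bases before it. Single AP-1 matches lie 186 to 180 bases before the start in PLAUR, 102 to 96 in SERPINB2 and 127 to 121 in ANXA2. The PLAU window shown, like its second window and both windows of SERPINE2, holds neither motif. Among all 35114 windows of this length, 6.57% hold the AP-1 motif and 1.45% the NF-kB motif. Sp1, EGR1, hypoxia element and TATA motifs were also searched and are not marked. They matched 5, 1, 1 and 3 of the 8 windows, beside 42.6%, 0.721%, 18.5% and 10.7% of all windows. A match is a string of letters and not a measured binding site.

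Urokinase was higher under both ZHX2 hairpins and lower under both USP13 hairpins. PLAU stood at 70.1, 73.5 and 70.5 CPM in the ZHX2 controls, at 184, 188 and 200 CPM under sh43, and at 265, 268 and 264 CPM under sh45. Among the USP13 libraries it stood at 44.1, 44.1 and 43.0 CPM in the controls, at 31.3, 30.0 and 32.6 CPM under sh50, and at 37.7, 35.5 and 34.1 CPM under sh52. No 2 of the 6 groups overlapped, in the descending order sh45, sh43, ZHX2 controls, USP13 controls, sh52, sh50. The change on the log2 scale was 1.39 ± 0.05 (SE) under sh43 and 1.88 ± 0.05 under sh45, and it was -0.49 ± 0.08 under sh50 and -0.30 ± 0.08 under sh52. All 4 passed the threshold of 0.05 on the adjusted p of edgeR's quasi-likelihood test over all genes tested, which is what "called" means below. The sh52 call was lost when sh52 replicate 3, control replicate 1 or control replicate 2 was left out (log2 changes over all left-out libraries -0.34 to -0.26). The 3 PLAU transcripts in the files took 30.8%, 30.7% and 38.5% of its estimated counts over all libraries. PLAU overlaps C10orf55 in the annotation, to which 239 counts were given in all 18 libraries against 26487 for PLAU, and the kit does not keep the strand. In bulk RNA, fewer cells that express a gene and less of its RNA per cell cannot be told apart.

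**Figure D1:**
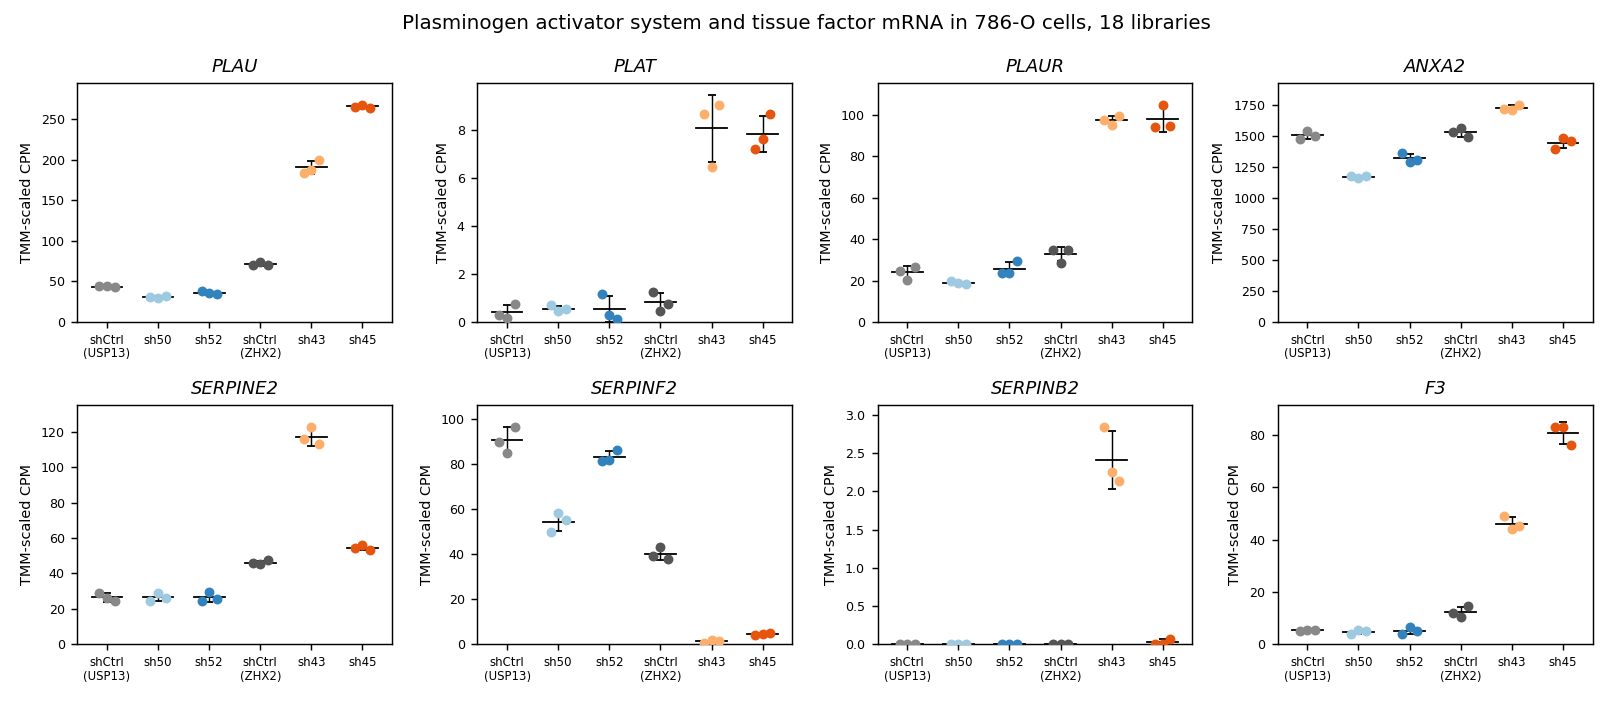
TMM-scaled CPM (vertical axes, linear from 0, one panel per gene) of the 8 genes in the 18 libraries, by group along the horizontal axis. Points are libraries, the horizontal line is the mean of 3 and the bar its SD. PLAU, PLAT, PLAUR and F3 stood above the ZHX2 controls in every sh43 and sh45 library, SERPINF2 stood below them, and SERPINB2 rose above 1 CPM only under sh43.

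Tissue plasminogen activator was near the limit of detection without a ZHX2 hairpin. PLAT stood at 1.24, 0.443 and 0.769 CPM in the ZHX2 controls, from 33 counts in all, and was higher in each library of both hairpins. It reached 8.69, 6.48 and 9.07 CPM with sh43 and 7.20, 7.64 and 8.66 CPM with sh45, and the ranges of the 2 hairpins overlapped. The log2 change was 3.27 ± 0.26 (SE) under sh43 and 3.24 ± 0.26 under sh45. In the USP13 experiment PLAT had 17, 24 and 23 counts in the controls, under sh50 and under sh52, did not pass the filter on low counts, and was not tested. Its 0.140 to 1.17 CPM in those 9 libraries overlapped between the 3 groups. PLAT passed the filter in the ZHX2 experiment only through the sh43 and sh45 libraries where it is high, so that its calls there followed from the filter and support nothing. Per transcript length the activators were far apart: in the ZHX2 controls PLAU averaged 54.7 ± 0.310 TPM (length-scaled transcript abundance, SD, n = 3) and PLAT 0.480 ± 0.245 TPM, and under sh45 they averaged 174 ± 4.14 and 3.96 ± 0.310 TPM.

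The urokinase receptor was higher under both ZHX2 hairpins by nearly the same amount. PLAUR stood at 34.8, 28.7 and 34.9 CPM in the ZHX2 controls, at 97.7, 95.2 and 99.5 CPM under sh43, and at 94.4, 105 and 94.5 CPM under sh45. Both hairpins lay clear of the controls and overlapped each other, with log2 changes of 1.54 ± 0.07 (SE) and 1.56 ± 0.07, both called. Under the USP13 hairpins PLAUR stood at 19.6, 19.1 and 18.6 CPM with sh50 and at 23.8, 23.9 and 29.7 CPM with sh52, against 24.8, 20.5 and 26.7 CPM in the controls. The sh50 libraries lay below the controls, with a log2 change of -0.33 ± 0.11, and the sh52 libraries overlapped them, with 0.11 ± 0.11. Of these the sh50 change was called, but the call was lost with effective-length offsets and in 5 of the 9 fits that left out 1 library.

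Annexin A2 was abundant in every library and moved little. ANXA2 stood at 1529, 1568 and 1492 CPM in the ZHX2 controls, at 1715, 1707 and 1753 CPM under sh43, and at 1394, 1485 and 1460 CPM under sh45. The log2 change was 0.15 ± 0.04 (SE) under sh43 and -0.10 ± 0.04 under sh45, so that the 2 hairpins against one gene gave calls of opposite direction. The sh45 call was lost with upper-quartile factors, with no filter on low counts, with only the 2 groups compared in the fit, and in 4 of the 9 fits without 1 library, at log2 changes of -0.12 to -0.07. With USP13 as the target, ANXA2 stood at 1478, 1539 and 1502 CPM in the controls, at 1175, 1160 and 1177 CPM under sh50, and at 1360, 1294 and 1309 CPM under sh52. All 6 hairpin libraries lay below the 3 controls, with log2 changes of -0.37 ± 0.04 and -0.20 ± 0.04, both called. Its processed pseudogenes ANXA2P1, ANXA2P2 and ANXA2P3 were given 4, 111 and 7 counts over all libraries against 363216 for ANXA2, and reads shared with them may have been divided by the authors' quantification.

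Plasmin's own inhibitor fell the furthest of the 8 under the ZHX2 hairpins. SERPINF2, which encodes alpha-2-antiplasmin, stood at 39.3, 43.3 and 37.7 CPM in the ZHX2 controls. It stood at 0.674, 1.79 and 1.40 CPM under sh43, from 53 counts in 3 libraries, and at 3.97, 4.47 and 4.73 CPM under sh45. The 3 groups did not overlap, and the log2 change was -4.96 ± 0.17 (SE) under sh43 and -3.21 ± 0.14 under sh45, both called. SERPINF2 was more abundant in the USP13 experiment, at 89.8, 84.9 and 96.6 CPM in the controls. There it stood at 49.9, 58.1 and 55.1 CPM under sh50, a called log2 change of -0.74 ± 0.07. Under sh52 it stood at 81.5, 81.8 and 86.2 CPM, which overlapped the controls, with a log2 change of -0.13 ± 0.07 that was not called.

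The inhibitors of the activators differed between the 2 ZHX2 hairpins. SERPINE2, or protease nexin-1, which inhibits urokinase and thrombin, stood at 45.6, 45.2 and 47.3 CPM in the ZHX2 controls, at 116, 123 and 113 CPM under sh43, and at 54.5, 56.1 and 53.2 CPM under sh45. Neither hairpin overlapped the controls, with called log2 changes of 1.33 ± 0.06 (SE) and 0.23 ± 0.06. For the USP13 hairpins and their controls, SERPINE2 lay between 24.1 and 29.4 CPM in all 9 libraries, the 3 groups overlapped, and neither change (-0.00 ± 0.10 under sh50 and -0.01 ± 0.10 under sh52) was called. SERPINB2, plasminogen activator inhibitor 2, had 38, 34 and 26 counts under sh43, which is 2.85, 2.25 and 2.14 CPM. It had no count in the other 15 libraries apart from 1 count in sh45 replicate 3. A count of 0 in the 3 ZHX2 controls allows up to 3 counts over the group, or 0.0737 CPM, so SERPINB2 was at least 32.8-fold higher under sh43. SERPINB2 passed the filter on low counts only through the sh43 group, so that its call there had to follow and supports nothing. Under sh45 and the USP13 hairpins both sides lie at or under that floor, and no fold is given.

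Tissue factor was higher under both ZHX2 hairpins, more so under sh45. F3 stood at 11.9, 10.3 and 14.4 CPM in the ZHX2 controls, at 49.0, 44.1 and 45.1 CPM under sh43, and at 83.3, 83.3 and 76.1 CPM under sh45. The 3 groups did not overlap, and the called log2 changes were 1.89 ± 0.09 (SE) and 2.71 ± 0.09. Under the USP13 hairpins F3 stood at 3.74, 5.44 and 5.10 CPM with sh50 and at 3.79, 6.52 and 5.03 CPM with sh52, against 5.13, 5.52 and 5.48 CPM in the controls. These groups overlapped, and neither change (-0.17 ± 0.21 and -0.09 ± 0.21) was called. F3 has 2 transcripts in the files, the longer of which encodes the membrane form and the shorter an alternatively spliced form. The shorter took 38.3% of the estimated counts over all libraries, with 36.9% to 39.5% in each of the 9 libraries of the ZHX2 experiment. In the USP13 experiment it took 27.9% to 36.3% in the controls, 43.7% to 46.5% under sh50 and 44.4% to 47.3% under sh52, without overlap between controls and hairpins, at totals of 43 to 91 counts a library. These shares were chosen after their values were seen, were estimated by the authors' quantification, and were not tested.

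Read over the 8 genes, the calls were mostly higher under the ZHX2 hairpins and only lower under the USP13 hairpins. Under sh43, 7 of 8 were called higher and 1 lower, beside 33.5% and 35.3% of all 13597 genes tested (68.8% in either direction). Under sh45, 5 were called higher and 2 lower, beside 25.3% and 27.3% (52.6% in either). PLAU, PLAT, PLAUR, SERPINE2 and F3 were called higher and SERPINF2 lower under both, beside 14.1% and 15.9% of all genes (30.0% in the same direction). The median log2 change of the 8 was 1.47 under sh43 and 1.70 under sh45, where all genes had medians of -0.02 and -0.01. The fitted values of SERPINB2 in these medians depend on the prior count. With SERPINB2 at its bound the sh43 median was 1.47, and without SERPINB2 the sh45 median of 7 genes was 1.56. Of the 6 genes tested in the USP13 experiment, 4 were called lower and 0 higher under sh50, beside 11.3% and 10.2% of 13708 genes (21.5% in either direction). Under sh52, 2 were lower and 0 higher, beside 6.57% and 5.45%. PLAU and ANXA2 were lower and none was higher under both, beside 4.16% and 3.26% of all genes (7.42% in the same direction). Leaving out 1 library gave 1 or 2 calls under sh52. The calls higher under sh43 include PLAT and SERPINB2, and those under sh45 include PLAT, which passed the filter only through hairpin libraries. Since the genes were chosen on these comparisons, nothing is read from the counts.

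**Figure D2:**
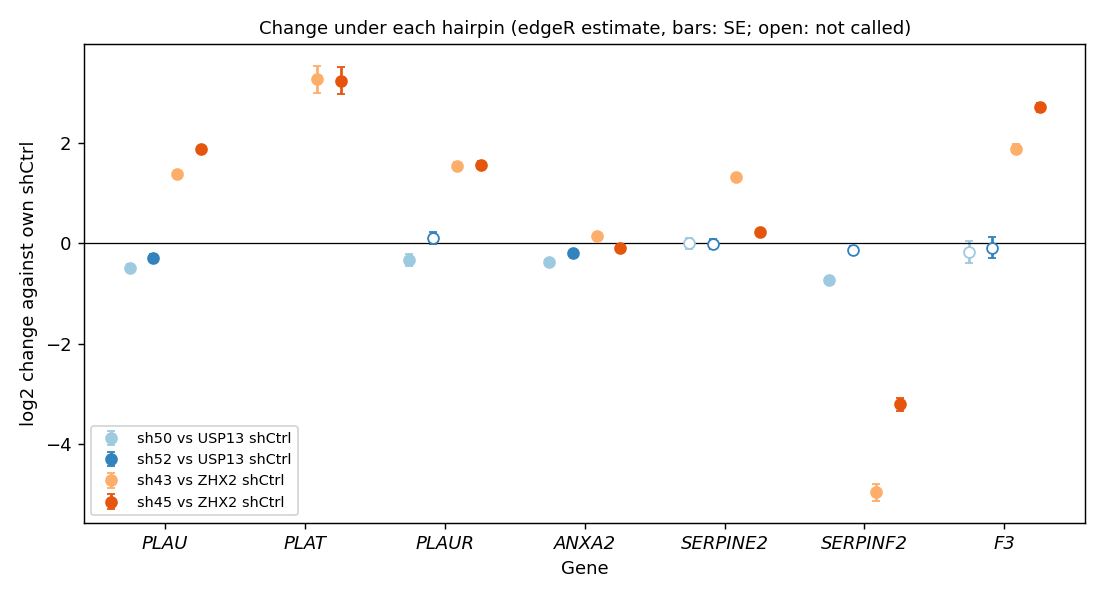
Log2 change of each gene (horizontal axis) against the shCtrl libraries of its own experiment (vertical axis, with bars of 1 standard error) for the 4 hairpins, 3 libraries against 3, with open points for changes not called. SERPINB2 is left out for want of control counts and PLAT is shown for the ZHX2 hairpins, where it was tested. PLAU, PLAT, PLAUR and F3 lie above 1 under both ZHX2 hairpins, SERPINF2 lies below -3 under both, and the USP13 changes lie between -0.74 and 0.11.

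The 2 hairpins of each experiment were then set against each other. These contrasts and the next are made of the same changes on which the genes were chosen, so they too are descriptions without p-values. Between sh45 and sh43, 6 of the 8 were called, 3 higher and 3 lower under sh45, beside 66.8% of all genes (34.2% higher and 32.7% lower). Relative to sh43, sh45 had more PLAU (log2 difference 0.49 ± 0.05 SE), more F3 (0.82 ± 0.08) and more SERPINF2 (1.75 ± 0.23). It had less SERPINE2 (-1.10 ± 0.06), less ANXA2 (-0.24 ± 0.04) and less SERPINB2. Since SERPINB2 passed the filter on low counts only through sh43, its call here had to follow and supports nothing. PLAT and PLAUR were not called, at -0.03 ± 0.18 and 0.02 ± 0.07. Residual ZHX2 was lower under sh43 than under sh45 (41.7 against 86.7 CPM), and SERPINF2, SERPINE2 and SERPINB2 were the further from control under sh43, whereas PLAU and F3 were the further from control under sh45. Mitochondrial ribosomal RNA took a differing share of the counts in both experiments. It took 1.25% ± 0.07 in the ZHX2 controls, 1.55% ± 0.03 under sh43 and 3.09% ± 0.26 under sh45 (SD, n = 3). It took 2.62% ± 0.08 in the USP13 controls, 4.25% ± 0.16 with sh50 and 3.70% ± 0.14 with sh52. Leaving that RNA out of the counts changed no call of the 8 genes in either experiment. Between sh52 and sh50, where 10.2% of all genes were called (5.49% higher and 4.73% lower under sh52), 3 of the 6 genes tested were: SERPINF2 (0.61 ± 0.07), PLAUR (0.44 ± 0.11) and ANXA2 (0.18 ± 0.04), all higher under sh52. The PLAUR call was lost in 2 of the 9 fits without 1 library. PLAU was not called (0.19 ± 0.08).

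The mean response to the ZHX2 hairpins was compared with the mean response to the USP13 hairpins in 1 fit of all 18 libraries. It was larger for PLAU by 2.04 ± 0.07 on the log2 scale (SE), for F3 by 2.44 ± 0.19, for PLAUR by 1.68 ± 0.12, for SERPINE2 by 0.80 ± 0.10 and for ANXA2 by 0.32 ± 0.05. For SERPINF2 the difference was -3.64 ± 0.13. For PLAT it was 2.82 ± 0.70, and without USP13 control replicate 3, which held the most PLAT of the 3 controls there, it was 2.08 and no longer called. All 7 were called, and so were 43.4% of all 14200 genes, 20.7% higher and 22.7% lower. The controls of the 2 experiments differed as well. PLAU, PLAUR, SERPINE2 and F3 lay above the USP13 controls in all 3 ZHX2 controls, and SERPINF2 lay below them. PLAT, SERPINB2 and ANXA2 overlapped between the control groups. The share of all genes that separate the control groups was not counted, so nothing is read from this. ZHX2 itself averaged 150 CPM in the USP13 controls, 131 under sh50 and 134 under sh52, against 349 CPM in the ZHX2 controls. Experiment and set of controls go together, and their part in these differences cannot be told apart from that of the targeted gene.

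Other genes of the same pathways were taken from 3 lists, also drawn up with earlier results of these data known. Their adjusted p-values are therefore descriptions and support nothing. Of 17 further genes of the plasmin system, 8 could be tested in the ZHX2 experiment, of which 3 rose (S100A10, ENO1 and IGF2R) and 2 fell (LRP1 and MRC2) under sh43, with a median log2 change of -0.06. Under sh45, 3 rose (S100A10, PLGRKT and MRC2) and 1 fell (IGF2R), with a median of 0.06. Calls in either direction were made for 68.8% of all genes under sh43 (33.5% higher, 35.3% lower, median -0.02) and 52.6% under sh45 (25.3% higher, 27.3% lower, median -0.01), so that 5 and 4 of 8 is nothing particular to this list. S100A10, the partner of annexin A2, rose under both, by 0.16 ± 0.04 (SE, edgeR adjusted p = 0.00169) and 0.38 ± 0.04 (adjusted p = 2.20e-08). LRP1, the endocytic receptor that clears activator and inhibitor complexes, fell under sh43 (-1.08 ± 0.09, adjusted p = 5.02e-11) and was at 0.08 ± 0.09 under sh45 (adjusted p = 0.491). The plasminogen receptor PLGRKT rose under sh45 (0.44 ± 0.14, adjusted p = 0.0115), a call lost in 1 of the 9 fits without 1 library. PLG, which encodes plasminogen, had 0 counts in all 18 libraries.

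In the USP13 experiment, 9 of those 17 genes were tested: 0 rose and 5 fell under sh50 (S100A10, LRP1, ENO1, MRC2 and IGF2R, median log2 change -0.16), and 0 rose and 2 fell (ENO1 and MRC2) under sh52 (median -0.16). Of all genes, 10.2% were higher and 11.3% lower under sh50, and 5.45% were higher and 6.57% lower under sh52, with medians of 0.00 and -0.00, and the lists were not tested against these shares. S100A10 fell under sh50 (-0.35 ± 0.05 SE, edgeR adjusted p = 2.76e-05), as did LRP1 (-0.26 ± 0.06, adjusted p = 0.00127). ENO1, a glycolytic enzyme that also binds plasminogen, and MRC2, a collagen receptor that associates with PLAUR, were lower under both hairpins, at -0.11 ± 0.04 and -0.20 ± 0.04 for ENO1 and at -0.16 ± 0.06 and -0.25 ± 0.06 for MRC2. Their sh50 calls were lost in 6 and 5 of the 9 fits without 1 library.

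The tissue factor list held 20 further genes of its inhibitors, thrombin receptors, coagulation factors and the protein C system, and 10 could be tested in the ZHX2 experiment. Under sh43, 6 rose (TFPI2, THBD, F2R, F2RL1, F2RL2 and PROCR) and 4 fell (TFPI, PROS1, F2 and F8), with a median log2 change of 0.46. Under sh45, 2 rose (TFPI2 and THBD) and 5 fell (PROS1, F2, F8, F2R and F2RL1), with a median of -0.29. The calls thus covered 10 of 10 and 7 of 10, beside 68.8% and 52.6% of all genes, a difference that was not tested. TFPI2, a Kunitz inhibitor of plasmin and of the tissue factor complex, rose from 68.6 CPM to 223 under sh43 and 172 under sh45, or by 1.67 ± 0.06 (SE, edgeR adjusted p = 6.26e-19) and 1.31 ± 0.06 (adjusted p = 2.75e-16). THBD, the thrombin cofactor thrombomodulin, rose from 0.963 CPM to 3.48 and 3.21, by 1.83 ± 0.32 (adjusted p = 1.79e-05) and 1.72 ± 0.33 (adjusted p = 7.82e-05). TFPI, the principal inhibitor of tissue factor, stood at 129 CPM in the controls and fell by a small amount under sh43 (-0.18 ± 0.06, adjusted p = 0.0104), a call lost in 2 of the 9 fits without 1 library. Its change under sh45 was -0.11 ± 0.06 (adjusted p = 0.135). Another 3 coagulation genes are named because they were called lower under both hairpins, so their changes are given without p-values. PROS1, the protein S cofactor of activated protein C, fell from 86.1 CPM to 37.1 and 28.8, with log2 changes of -1.24 ± 0.06 and -1.60 ± 0.07. F2, which encodes prothrombin, changed by -2.55 ± 0.18 and -1.16 ± 0.15, and F8 by -1.20 ± 0.27 and -1.03 ± 0.27.

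The thrombin receptor F2R and the trypsin-activated receptor F2RL1 separated the 2 ZHX2 hairpins. F2R averaged 41.6 CPM in the controls, 56.7 under sh43 and 26.8 under sh45, with log2 changes of 0.42 ± 0.08 and -0.65 ± 0.09 (SE, edgeR adjusted p = 4.61e-05 and 4.67e-07). F2RL1 averaged 15.6, 37.7 and 11.3 CPM, with changes of 1.25 ± 0.10 and -0.48 ± 0.11 (adjusted p = 1.18e-11 and 0.000716). Tested against each other, sh45 was below sh43 by 1.07 for F2R (-1.07 ± 0.08, adjusted p = 1.61e-11) and by 1.73 for F2RL1 (-1.73 ± 0.10, adjusted p = 5.29e-14). PROCR, the endothelial protein C receptor, rose under sh43 (0.50 ± 0.06, adjusted p = 1.09e-07) and not under sh45 (0.05 ± 0.07, adjusted p = 0.562), a difference of -0.46 ± 0.06 (adjusted p = 5.73e-07). THBD, PLAT and PROCR are also known from endothelial cells. The endothelial markers PECAM1, CDH5 and VWF reached at most 0.157, 0.276 and 0.135 CPM. Of all 8 endothelial markers, 7 were under 1 CPM in every library, among them EMCN with no count. Their summed level was 0.591 to 1.12 CPM in the ZHX2 controls, 3.24 to 4.34 under sh43 and 1.01 to 1.62 under sh45, and most of it was ESAM, which was called higher under sh43 (1.98 ± 0.36, adjusted p = 2.75e-05). Of 10 leukocyte and platelet markers, 7 were under 1 CPM in every library, among them CD3E, PF4 and PPBP with no count. Their summed level, mostly CD68, was 38.6 to 46.6 CPM in the ZHX2 controls, 20.8 to 21.7 under sh43 and 61.8 to 65.0 under sh45. It was 28.2 to 31.8 CPM in the USP13 controls, 18.9 to 23.8 under sh50 and 35.6 to 37.5 under sh52. CD68 was called lower under sh43 (-1.27 ± 0.08) and sh50 (-0.59 ± 0.10) and higher under sh45 (0.53 ± 0.07) and sh52 (0.30 ± 0.09). CD14 reached at most 1.72 CPM. CSF1R, at most 2.39 CPM, was called higher under sh43 (1.92 ± 0.39) and sh45 (1.19 ± 0.42). With 22 counts in the ZHX2 controls, CSF1R passed the filter through the hairpin libraries where it is high. Its calls there support nothing. The part of these markers in the changes above was not tested.

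**Figure D3:**
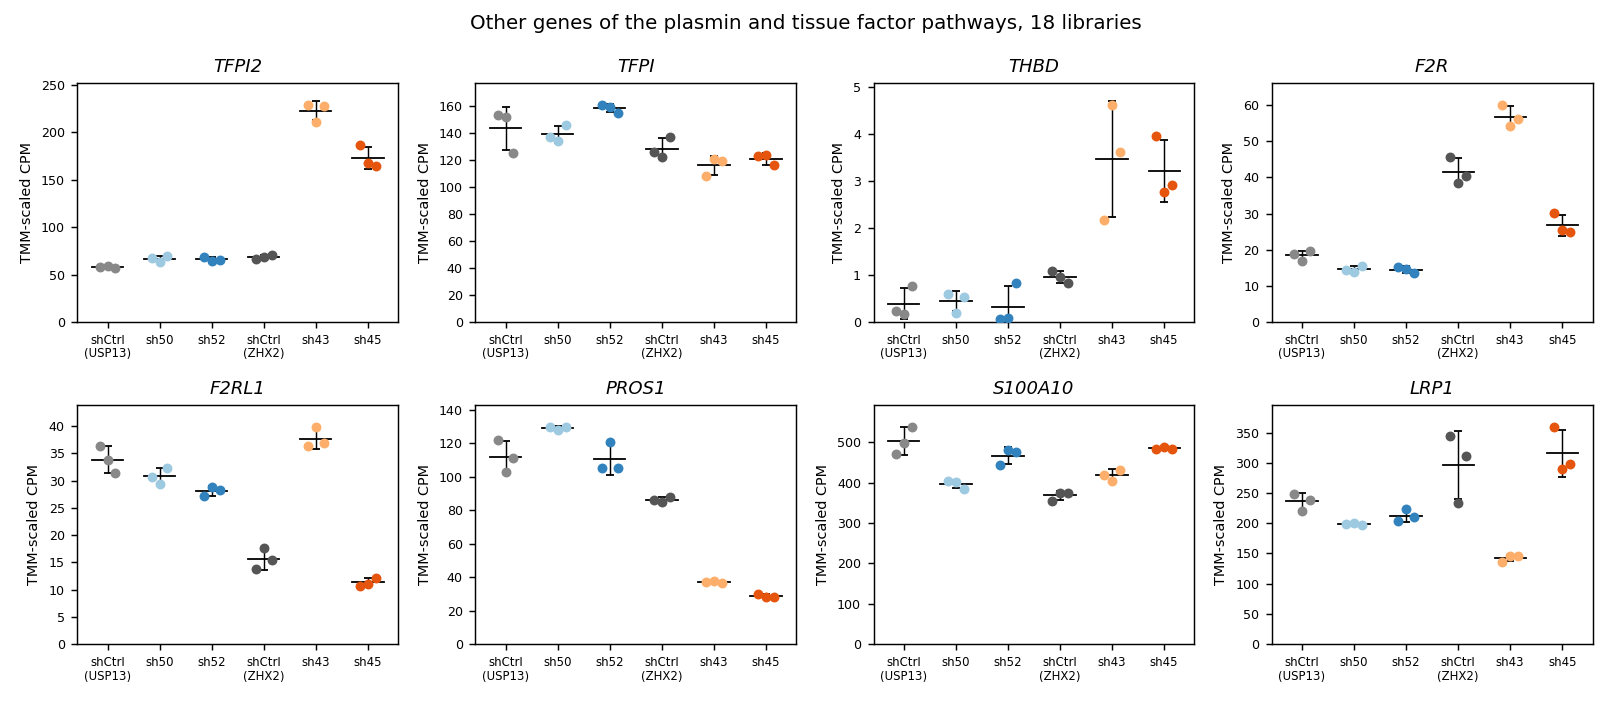
TMM-scaled CPM (vertical axes, linear from 0) of 8 further genes of the plasmin and tissue factor pathways in the 18 libraries, by group along the horizontal axis, with the mean of 3 libraries as a line and its SD as a bar. TFPI2 and THBD stand above the ZHX2 controls under sh43 and sh45 and PROS1 below them, F2R and F2RL1 rise under sh43 and fall under sh45, LRP1 falls under sh43, and TFPI varies little.

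Of the 20 tissue factor genes, 8 were tested in the USP13 experiment. Under sh50, 2 rose (PROS1 and TFPI2) and 1 fell (F2R), and under sh52, 1 rose (F2) and 2 fell (F2R and F2RL1), with median log2 changes of -0.02 and -0.11. These counts stand beside the 10.2% higher and 11.3% lower of all genes under sh50, and the 5.45% and 6.57% under sh52. F2R was the only gene of this list called under both, at -0.34 ± 0.11 (SE) and -0.35 ± 0.11 (edgeR adjusted p = 0.0326 and 0.0424). Each of the 6 calls in this list was lost in 4 to 7 of the 9 fits without 1 library. Among 12 further clade B serpins, relatives of SERPINB2, 3 were tested in the USP13 experiment and 5 in the ZHX2 experiment. SERPINB1, an inhibitor of neutrophil proteases, fell under all 4 hairpins: by 0.65 under sh50, 0.24 under sh52, 1.04 under sh43 and 0.34 under sh45. It is named because it was called under both hairpins of an experiment, so no p-value is given. The sh52 call was lost in 2 of the 9 fits without 1 library. The other counts in that list were 1 further fall under sh50 (SERPINB8), 2 rises (SERPINB7 and SERPINB9) and 1 further fall (SERPINB6) under sh43, and 1 rise (SERPINB6) under sh45. SERPINB7 was not tested in the USP13 experiment and changed by 0.74 ± 0.74 (SE) under sh45. It may have passed the filter only through sh43, so its call there supports nothing. Over the 3 lists, 7 of the 23 genes tested were called in the same direction under both ZHX2 hairpins, beside 30.0% of all genes. Under both USP13 hairpins it was 4 of 20, beside 7.42% of all genes, and 1 to 4 when 1 library was left out.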

How the data were processed

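The 18 libraries of 786-O RNA, 3 a group, were made with a kit that does not keep the strand, per the labels' protocols. The authors deposited Salmon tables by RefSeq transcript, whose estimated counts were unscaled and whose TPM values the authors scaled for length and depth, per the file headers. Build hg19 and the tools Salmon 0.11.3, STAR 2.5.2b, DESeq2 1.14.1 and cutadapt 1.12 are named, without roles, per the submitters' processing notes. Deposited lengths served as an alternative offset.

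The estimated counts, whole within 1e-06, were summed to 27063 genes. Of 60422 transcripts, 59295 were named by RefSeq (GRCh38.p14), 690 by GENCODE 29, and 437 were unnamed (0.0854% to 0.12% of counts). Levels are CPM with TMM factors over all 18 libraries, and TPM served to compare genes. Changes came from edgeR 4.0.16 (R 4.3.3) quasi-likelihood tests on the 9 libraries of each experiment, with filterByExpr and Benjamini-Hochberg adjustment over all genes tested, called at 0.05. The SE of a log2 change was worked back from the change and the F statistic of its test. The test was checked on simulated data: 72.0% (sh50) and 71.0% (sh43) of genes changed 1.5-fold were recovered. The alternatives were other scalings, DESeq2 1.42.0, other filters, offsets and samples. Libraries of 1 group differed by more than counting noise (chi-square per degree of freedom 2.33 to 6.68), so none was a copy.

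The 8 genes and the gene lists were chosen with earlier results of these data known. Named besides the 8 were 10 pathway genes whatever their values (1 more under the same rule is not reported here), listed genes called in the same direction under both hairpins of an experiment, and for each of the 8 the 3 genes most like it over the libraries. Genes outside that rule are named where a count is small.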

Additional observations from a re-analysis of the deposited data

Results flagged for a closer look

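For 7 of the 8 genes the mean responses to the ZHX2 and the USP13 hairpins were called different (edgeR, 18 libraries), as were 43.4% of all 14200 genes. The genes were chosen on these responses, so the differences, on the log2 scale, are a description. The differences were 2.04 for PLAU, 2.82 for PLAT (2.08 and not called without USP13 control replicate 3), 1.68 for PLAUR, 0.80 for SERPINE2, -3.64 for SERPINF2, 2.44 for F3 and 0.32 for ANXA2. For SERPINB2 the difference could not be fitted, since the USP13 experiment held no count of it. Each experiment had its own controls and its own depth of knockdown: USP13 kept 17.7 and 16.5 of 33.4 CPM, and ZHX2 kept 41.7 and 86.7 of 349 CPM. What these contribute cannot be told apart from the targeted gene.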

How the results depend on the processing

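Of 48 results on the 8 genes, 35 kept direction and side of the threshold under every alternative run, among them 14 of 15 ZHX2 changes against control (the exception is ANXA2 under sh45) and 6 of 12 USP13 changes. Those 14 include PLAT under both hairpins and SERPINB2 under sh43, whose calls followed from the filter on low counts. The genes were also chosen on these changes, so the tally describes the processing and supports nothing further. Genes of the other lists called under both USP13 hairpins numbered 4, but 1 with upper-quartile factors or with the replicate block, 2 with no filter on low counts, and 1 to 4 without 1 library. Members called under sh52 numbered 1 to 2 without 1 library. The counts showed no pairing of samples by replicate number (same-number correlations -0.1 to 0.05 and -0.06 to 0.04). This cannot tell whether samples of the same number were prepared together.

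Sign changes were confined, among the results run, to changes that were not called. With upper-quartile factors PLAT differed by 0.0468 between sh45 and sh43, and SERPINE2 changed by 0.0101 under sh50 and 0.0004 under sh52, and with no filter SERPINE2 changed by 0.0019 under sh50. Without 1 library, SERPINE2 ran from -0.0675 to 0.0649 under sh50, from -0.0901 to 0.0561 under sh52 and from -0.0906 to 0.0582 between them, F3 from -0.29 to 0.0891 under sh52 and from -0.12 to 0.26 between the USP13 hairpins, and PLAUR from -0.0043 to 0.19 under sh52 and from -0.0342 to 0.0422 between the ZHX2 hairpins. PLAT ran from -0.17 to 0.0602 between the ZHX2 hairpins, PROS1 from -0.10 to 0.0325 under sh52, PLGRKT from -0.0024 to 0.14 under sh50 and from -0.13 to 0.025 under sh43, LRP1 from -0.054 to 0.20 under sh45, and PROCR from -0.0371 to 0.10 under sh50. The cause was not tested. No scaling moved the median of all genes by more than 0.1. Depth limited PLAT, SERPINB2 and THBD, whose control groups held 33, 0 and 39 counts.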

Other observations

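TFPI and F3, inhibitor and target, were set against each other per transcript length. The ratio of TFPI to F3 in TPM was 6.87 to 8.68 in the ZHX2 controls, 1.65 to 2.01 under sh43 and 1.03 to 1.09 under sh45, so that transcripts of the inhibitor came close in number to those of F3. In the USP13 experiment the ratio of TFPI to F3 was 15.9 to 21.2 in the controls, 16.6 to 25.3 under sh50 and 16.8 to 30.3 under sh52. These ratios were chosen after the levels were seen, describe RNA, and were not tested.

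For each gene, the genes most like it among 14200 were found by Pearson's r over the 18 libraries, after each library's log2 CPM was set against the mean of its own controls. These r values describe 6 groups that share libraries and controls. SERPINB2 had 98 counts in the 3 sh43 libraries and 1 elsewhere, so its neighbours are genes that stand apart under sh43. PLAU was most like ECE1 (r = 0.996), TMEM214 (0.990) and SQOR (0.988). PLAUR was most like RAC2 (0.986), CDCP1 (0.983) and CXCL8 (0.980), PLAT like PGS1 (0.956), CDH13 (0.956) and DUSP6 (0.952), and F3 like IGF2 (0.987), SHB (0.983) and TREM1 (0.983). SERPINF2 was most like VAV3 (0.992), SREBF2 (0.991) and ZHX2 (0.989). ZHX2 is the gene that sh43 and sh45 target, and it was lowest under sh43. Any gene that falls in that order and changes little under the USP13 hairpins is like it here. A link between SERPINF2 and ZHX2 was not tested. SERPINE2 was most like PRPS1 (0.988), YRDC (0.982) and EEIG1 (0.981), SERPINB2 like TXNRD1 (0.992), PSMD12 (0.991) and HSP90AB1 (0.990), and ANXA2 like PDIA6 (0.971), CAP1 (0.955) and GBP3 (0.955).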
